A study of Mus musculus with 2 samples.

Results

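The interleukin-6 family of cytokines and its feedback were followed in newborn mouse skin through 10 genes, the ligands *Il6*, *Il11*, *Lif* and *Osm*, the receptors *Osmr*, *Il6ra* and *Il6st*, the transcription factor *Stat3* and the inhibitors *Socs1* and *Socs3*. They were chosen by name, as all probes other than controls that the array's design assigns to these symbols, and they had 11 probes on 20 spots, of 30133 genes, 39429 probes and 43020 spots in all. The skin of *Pnpla1*-/- mice, which were made to lack a lipid enzyme of the outer epidermis, was compared with that of *Pnpla1*+/+ mice. Both groups were newborns at postnatal day 0, and the total RNA of 6 animals of each genotype was pooled and hybridized to 1 Agilent 1-colour mouse array. The *Pnpla1*-/- mice carried the knockout-first allele *Pnpla1*tm1a(KOMP)Wtsi in every tissue, with its LacZ and Neo cassettes excised by flippase, were made from C57BL/6N embryonic stem cells and came from crosses of heterozygotes, and the *Pnpla1*+/+ mice were their littermates. Excision by flippase alone usually leaves such an allele conditional, and a further recombination step for these mice is not given in the sources used here. The study examined PNPLA1 mRNA and protein in these mice by other assays, which were not used here. The labels call the tissue skin and the description of the series calls it epidermis, and it is called skin here.

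Cytokines of this family bind a receptor chain of their own and then share the signalling chain gp130, the product of *Il6st*. Janus kinases on the receptor phosphorylate STAT3, which enters the nucleus and switches on target genes, among them *Socs3*, whose product blocks the receptor and closes a feedback loop. In skin, oncostatin M acts on keratinocytes through the receptor chain encoded by *Osmr*, and interleukin-6 is made by keratinocytes, fibroblasts and leukocytes.

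Of these 10 genes, *Il6*, *Osmr*, *Stat3* and *Socs3* were at least 2-fold higher in *Pnpla1*-/- skin and none was at least 2-fold lower. The folds were 6.75 for *Il6*, 4.1 for *Osmr*, 2.58 for *Socs3* and 2.28 for *Stat3*. The ligand gene *Il11* and the shared receptor gene *Il6st* differed by less than their measurement error. Among all 22382 genes for which a difference was obtained, 6.69% were higher by 2-fold or more and 3.04% were lower by as much, and of the 10 genes followed here 4 and 0 were. When the arrays were instead scaled to the probes for E1A spike-in RNA, a control of the labelling, these shares turned to 3.72% and 9.84%, and 2 of the 10 genes, *Il6* and *Osmr*, were higher by 2-fold or more. The median difference was 0.95 on the log2 scale over the 9 of them that were well above background on both arrays, and -0.01 over the 20683 genes measured on both. Because the 10 genes were chosen with earlier results of these data known, these shares and medians are a description and not a test.

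Values are background-subtracted intensities, in the scanner's units. A difference is the log2 of the *Pnpla1*-/- over the *Pnpla1*+/+ intensity after each was divided by its array's 75th percentile, 1734 in *Pnpla1*-/- and 2108 in *Pnpla1*+/+ skin, so that an equal intensity on both arrays is a higher scaled value in *Pnpla1*-/- skin. The error given with a difference is an SD from the scanner software's error estimate for the spots, and covers the measurement on these arrays but not the spread between mice. With 1 array per genotype no test could be run and no p-value is given. In RNA of whole tissue, fewer cells of a type and less RNA per cell cannot be told apart.

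**Figure D1:**
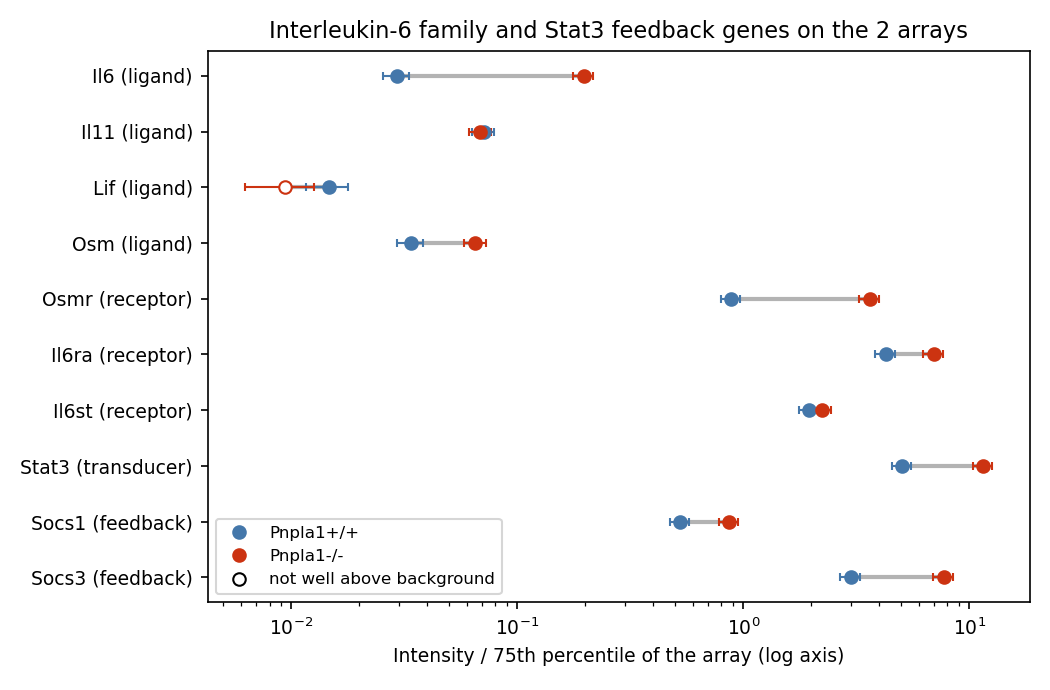
Intensity of the 10 genes divided by the 75th percentile of the array (log axis), with 1 point per array, in blue for *Pnpla1*+/+ and red for *Pnpla1*-/- skin, and bars for the scanner software's error of the spot. The points lie apart for *Il6*, *Osmr*, *Stat3* and *Socs3*, at 6.75-fold, 4.1-fold, 2.28-fold and 2.58-fold, and almost coincide for *Il11*, and *Lif* was not well above background in *Pnpla1*-/- skin (open point).

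The labels and the tissue were checked first. *Pnpla1* itself had an intensity of 579 in *Pnpla1*+/+ skin against 114 in *Pnpla1*-/- skin, a difference of -2.07, in the direction of the genotypes, although the probe stayed well above background in *Pnpla1*-/- skin and where it lies relative to the targeted exons was not examined. All 6 keratinocyte genes examined (*Krt5*, *Krt14*, *Krt1*, *Krt10*, *Trp63* and *Cdh1*) were well above background on both arrays, with a median difference of 0.21 (-0.07 with no scaling and -0.22 with spike-in scaling) and 1 of them, the basal keratin gene *Krt14*, at least 2-fold higher in *Pnpla1*-/- skin at 1.35, though not with spike-in scaling. The fibroblast genes were well above background on both arrays as well, and none of the 6 reached 2-fold. Their median was -0.07, or -0.35 with no scaling and -0.50 with spike-in scaling. Of all genes 6.69% were higher and 3.04% lower by 2-fold or more.

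The ligand genes came first in the order of the pathway. *Il6*, which encodes the inflammatory cytokine that gave the family its name, had an intensity of 61.6 in *Pnpla1*+/+ skin against 342 in *Pnpla1*-/- skin. The difference was 2.76 ± 0.24 (error SD, 1 spot per array), and 173 of the 20683 genes measured on both arrays, 0.836%, were at least as high. With normexp background correction, another way to subtract the background, the difference was 1.94, below the 1.97 of *Osmr*. Among the 5289 genes with a geometric mean intensity of both arrays below 200, where *Il6* lies and where 6.47% of genes were at least 2-fold higher, 0.718% were at least as high as *Il6*. Its probe lies at chr5:30346367-30346426 on the plus strand of mm9.

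The 250 bases before the start of *Il6* are shown because they hold matches to motifs of inflammatory transcription factors, in RefSeq's sequence at chr5:30012864-30013113 of GRCm38.p6, plus strand. Capitals mark an AP-1 match (TGANTCA) that begins 249 bases before the start and an NF-kappaB match that begins 44 bases before it.
Il6: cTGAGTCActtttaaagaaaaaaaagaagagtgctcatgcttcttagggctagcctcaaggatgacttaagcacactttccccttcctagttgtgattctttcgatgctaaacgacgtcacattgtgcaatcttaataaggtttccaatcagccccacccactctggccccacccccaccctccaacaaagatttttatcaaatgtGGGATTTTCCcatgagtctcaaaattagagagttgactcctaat
Both strands of a window from 250 bases before to 50 bases after each start were searched, and of 32851 such windows 7.81% held the AP-1 motif, 4.51% the NF-kappaB motif and 8.3% the STAT motif (TTCNNNGAA). The *Il6* window held no STAT match. A match describes the letters and does not show that a factor was bound.

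*Osm*, which encodes oncostatin M, a product of leukocytes that acts on keratinocytes, had an intensity of 71.2 in *Pnpla1*+/+ skin against 113 in *Pnpla1*-/- skin. It was 1.93-fold higher, a difference of 0.95 ± 0.25, which is larger than its error but short of 2-fold. *Osm* was at 0.67 with no scaling, 0.52 with spike-in scaling and 0.62 with normexp background correction. In its intensity range 7.18% of genes were at least as high.

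*Il11*, whose product acts on stromal and epithelial cells, had 149 in *Pnpla1*+/+ skin against 119 in *Pnpla1*-/- skin, a difference of -0.05 ± 0.23. The difference was -0.33 with no scaling and -0.48 with spike-in scaling, both larger than the error SD. *Lif*, which encodes leukaemia inhibitory factor, had 30.9 in *Pnpla1*+/+ skin and 16.3 in *Pnpla1*-/- skin, where it was not well above background. Against the lowest signal well above background on the *Pnpla1*-/- array, 21.7, its intensity gave a bound of 1.17-fold lower, or -0.23, which is smaller than its error SD of 0.58. So of the 4 ligand genes *Il6* was at least 2-fold higher, *Osm* was higher by less than 2-fold, *Il11* and the bound of *Lif* lay within their errors of 0.

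**Figure D2:**
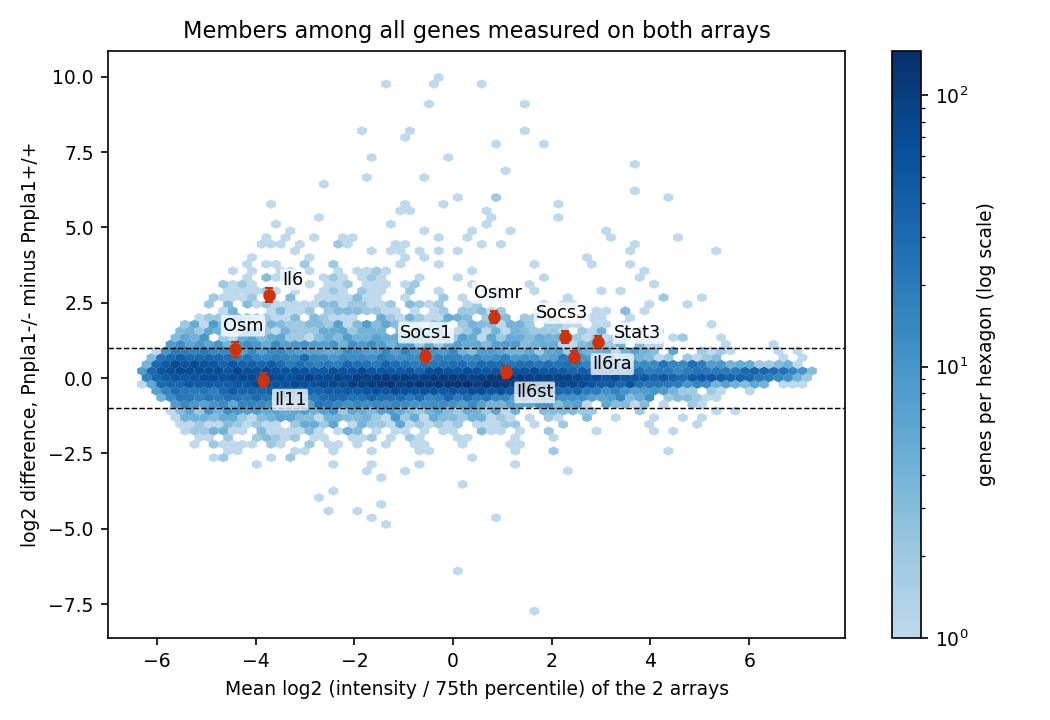
Difference between the genotypes (log2, y axis) against the mean scaled intensity of both arrays (log2, x axis) for the 20683 genes measured on both, coloured by the number of genes per hexagon, with the 9 measured genes of the family as red points with their error SD and dashed lines at 2-fold. *Il6* and *Osmr* stand at 2.76 and 2.04, above most genes of like intensity, and *Il11* and *Il6st* lie near 0.

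The 7 other ligand genes examined gave 6 differences, with *Ebi3* at least 2-fold higher and none lower by as much. Of all genes 6.69% were higher and 3.04% lower by 2-fold or more. The median of the 5 ligand genes measured on both arrays was 0.26, or -0.02 with no scaling and -0.17 with spike-in scaling. *Ebi3* encodes the shared subunit of interleukin-27 and interleukin-35. It had 1507 in *Pnpla1*+/+ skin against 3054 in *Pnpla1*-/- skin, a difference of 1.30, whereas *Il27*, which encodes its partner in interleukin-27, had 295 and 291 and a difference of 0.26. With spike-in scaling *Ebi3*, at 0.87, was short of 2-fold and *Il27* turned to -0.17, as it did to -0.02 with no scaling. The differences of these partners lay 1.04 ± 0.29 apart.

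The cardiotrophin gene *Ctf1*, measured on 10 spots of each array, gave differences from -0.56 to -0.46, and *Cntf*, which encodes ciliary neurotrophic factor, gave 0.16, which turned to -0.12 with no scaling and -0.27 with spike-in scaling. *Il31* did not exceed the background well on either array.

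Among the receptor genes, *Osmr*, which encodes the chain that binds oncostatin M, had an intensity of 1862 in *Pnpla1*+/+ skin against 6283 in *Pnpla1*-/- skin. The difference was 2.04 ± 0.20, or 4.1-fold, and 324 of 20683 genes, 1.57%, were at least as high. The probe lies at chr15:6763686-6763745 on the minus strand of mm9.

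*Il6ra*, which encodes the chain that binds interleukin-6, had 8976 in *Pnpla1*+/+ skin against 12057 in *Pnpla1*-/- skin, a difference of 0.71 ± 0.20, or 1.63-fold. The difference of *Il6ra* was 0.43 with no scaling and 0.28 with spike-in scaling, the latter within 2 error SDs. *Il6st*, which encodes gp130, had 4136 in *Pnpla1*+/+ skin against 3875 in *Pnpla1*-/- skin, a difference of 0.19 ± 0.20 that lay within its error and turned to -0.09 with no scaling and to -0.24 with spike-in scaling. Of the 3 chains only *Osmr* was at least 2-fold higher.

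Comparing the differences of receptor chains that work together does not depend on the scaling, since both are measured on the same arrays. *Osmr* lay 1.85 ± 0.28 above *Il6st*, its partner for oncostatin M. It also lay 2.20 ± 0.28 above *Lifr*, another chain that pairs with gp130, and 1.92 ± 0.29 above *Il31ra*, its partner in the interleukin-31 receptor. Each of these gaps was larger than 2 error SDs. *Il6ra* lay 0.52 ± 0.28 above *Il6st*, which was within 2 error SDs.

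Of the 6 other receptor genes listed, 5 had a probe under these names. None of the 5 reached 2-fold in either direction, where 6.69% of all genes were higher and 3.04% lower by as much. The differences of the 5 genes ran from -0.26 to 0.97 around a median of -0.04, which was -0.32 with no scaling and -0.47 with spike-in scaling. *Il11ra1*, which encodes the interleukin-11 receptor, had 37610 in *Pnpla1*+/+ skin against 30126 in *Pnpla1*-/- skin, a difference of -0.04. *Lifr*, the leukaemia inhibitory factor receptor, had 6266 and 4606 at its brightest probe, a difference of -0.16, with -0.02 and -0.04 at its other probes, and *Cntfr*, the ciliary neurotrophic factor receptor, had a difference of -0.26 there and 0.10 at its other probe.

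*Stat3*, the transcription factor through which the family signals, was measured on repeated spots, because its main probe was printed on 10 spots of each array. Its mean intensity was 10635 in *Pnpla1*+/+ skin against 19988 in *Pnpla1*-/- skin, and its 10 spots ran from 10298 to 10986 and from 19412 to 20931. The 10 differences ran from 1.16 to 1.24, with a mean of 1.19, an error SD of 0.20 and an SD over spots of 0.02. These spots are repeats of 1 hybridization and not of mice.

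In the range of intensities of *Stat3*, at or above 10000, 3.09% of genes were at least 2-fold higher and 2.33% were at least as high as *Stat3*. A second probe, at chr11:100759946-100760005 of mm9, had 240 in *Pnpla1*+/+ skin against 565 in *Pnpla1*-/- skin and a difference of 1.51 ± 0.21, in the same direction as the main probe at chr11:100749598-100749657. The 2-fold difference of *Stat3* depended on the scaling, with 0.91 when the arrays were not scaled and 0.76 when they were scaled to spike-in RNA.

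**Figure D3:**
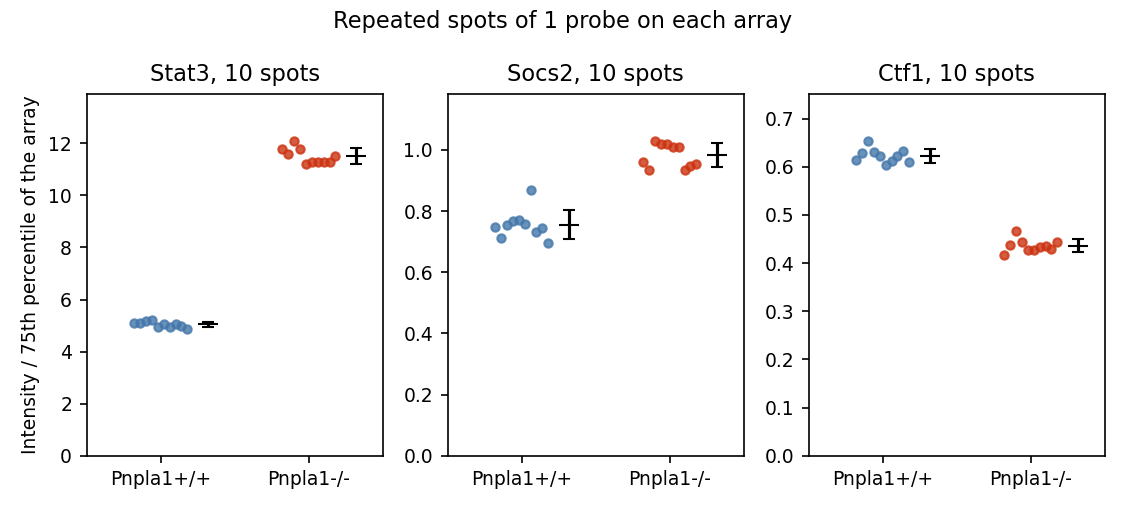
Intensity divided by the 75th percentile of the array for the 10 repeated spots of *Stat3*, *Socs2* and *Ctf1* on each array, with the mean and SD over spots in black beside the points. After this scaling the mean differences are 1.19 for *Stat3*, 0.38 for *Socs2*, whose unscaled spots overlap, and -0.51 for *Ctf1*.

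All 10 genes for Janus kinases and other STATs had a difference above 0, with a median of 0.52, and 2 of them, *Stat2* and *Jak3*, were at least 2-fold higher. Of all genes measured on both arrays 48.9% were above 0, and the share of all genes higher by 2-fold or more was 6.69%. The median of the list was 0.24 with no scaling and 0.09 with spike-in scaling. *Stat2*, which acts downstream of type I interferon receptors, had 1677 in *Pnpla1*+/+ skin against 4982 in *Pnpla1*-/- skin, a difference of 1.85. *Jak3*, a kinase of cytokine receptors of lymphoid cells, had 206 and 369, a difference of 1.12, and 0.92 at its other probe, which is short of 2-fold, as the brighter probe was with no scaling, spike-in scaling and normexp, at 0.84, 0.69 and 0.97. The kinases of gp130, *Jak1* and *Jak2*, had differences of 0.51 and 0.53. These were 0.22 and 0.25 with no scaling, and 0.07 and 0.10, within the error SD of 0.20, with spike-in scaling.

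*Stat5b*, *Tyk2* and *Stat6*, at 0.12, 0.38 and 0.42, turned to -0.31, -0.06 and -0.01 with spike-in scaling, and *Stat5b* also lay below 0 with no scaling. *Stat5a*, at 0.50, fell to 0.07 with spike-in scaling. *Stat3* lies beside *Stat5a* and *Stat5b* on chromosome 11, and its difference was 0.69 above that of *Stat5a*, at 0.50, and 1.07 above that of *Stat5b*, gaps that are independent of the scaling and larger than 2 error SDs.

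*Socs3* and *Socs1* encode inhibitors that STAT proteins induce. *Socs3*, which acts on gp130, had an intensity of 6285 in *Pnpla1*+/+ skin against 13362 in *Pnpla1*-/- skin. The difference was 1.37 ± 0.20, or 2.58-fold, and 697 of 20683 genes, 3.37%, were at least as high. It was 0.94, short of 2-fold, when the arrays were scaled to spike-in RNA. The probe lies at chr11:117827480-117827539 on the minus strand of mm9.

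The 250 bases before the start of *Socs3* are shown because *Socs3* was the only one of the 9 genes with a RefSeq window that held a STAT match, at chr11:117969367-117969616 of GRCm38.p6, minus strand. Capitals mark this match, which begins 154 bases before the start. Of all 32851 windows searched, 8.3% held a STAT match.
Socs3: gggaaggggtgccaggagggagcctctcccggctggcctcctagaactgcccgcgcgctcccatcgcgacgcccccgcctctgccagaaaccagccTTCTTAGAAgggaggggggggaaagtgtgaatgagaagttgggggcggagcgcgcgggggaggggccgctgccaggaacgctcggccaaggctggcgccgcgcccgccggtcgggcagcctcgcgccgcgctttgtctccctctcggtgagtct
An AP-1 match was held by 7.81% of all windows and an NF-kappaB match by 4.51%. Of the 9 genes, 4 held an AP-1 match in their windows and 1, *Il6*, an NF-kappaB match. The AP-1 matches were in *Il6*, in *Osmr* just after the start, and in *Il11* and *Lif*, which were not higher in *Pnpla1*-/- skin, while *Stat3*, *Socs1*, *Il6ra* and *Il6st* held no match to any of the motifs.

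*Socs1*, an inhibitor best known from interferon signalling, had 1106 in *Pnpla1*+/+ skin against 1498 in *Pnpla1*-/- skin, a difference of 0.72 ± 0.20, or 1.65-fold. *Socs1* was at 0.44 with no scaling and at 0.29 with spike-in scaling, the latter within 2 error SDs. The difference of *Socs3* lay 0.65 above that of *Socs1*, 0.99 above that of *Socs2* at its brightest probe and 0.90 above that of *Cish*, each gap larger than 2 error SDs, while the dimmest probe of *Socs2* was at 0.91 ± 0.25. Over all genes, 6.69% were higher and 3.04% lower by 2-fold or more. None of the 12 other inhibitor genes, which encode the other SOCS and the PIAS proteins and phosphatases, reached 2-fold in either direction. Their median was 0.21, or -0.07 with no scaling and -0.22 with spike-in scaling, and they ran from -0.51 to 0.62. *Ptpn11*, which encodes the phosphatase SHP2 that is recruited to gp130, had 21769 and 17739 and a difference of -0.01, and *Cish* and *Socs2* had 0.47 and 0.38. With spike-in scaling *Cish* was at 0.04. The unscaled spots of *Socs2* overlapped, from 1468 to 1834 in *Pnpla1*+/+ skin and from 1620 to 1788 in *Pnpla1*-/- skin, and its difference turned to -0.05 with spike-in scaling.

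**Figure D4:**
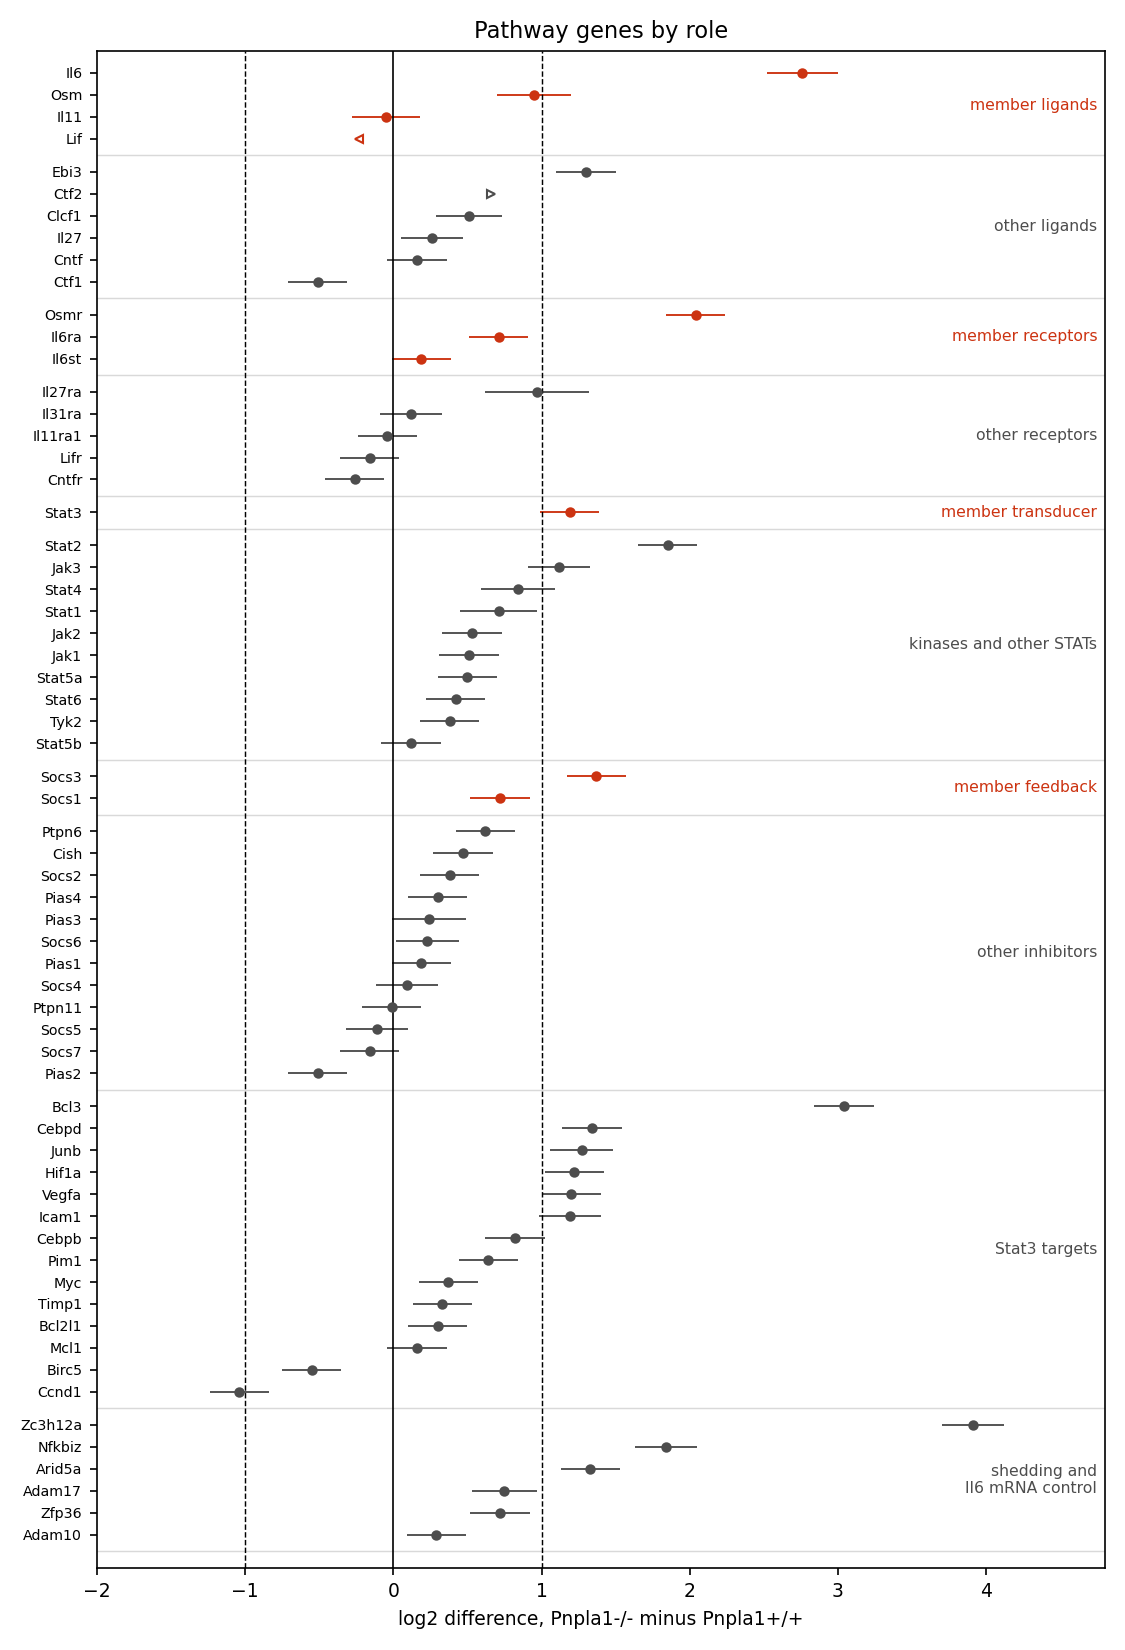
Difference between the genotypes (log2) for each gene of the family and pathway, grouped by role, with the 10 genes followed here in red, the error SD as a bar, triangles for bounds and dashed lines at 2-fold. *Il6*, *Osmr*, *Stat3* and *Socs3* lie to the right of 2-fold, no other receptor or inhibitor reaches it, and *Zc3h12a* and *Bcl3* lie farthest to the right at 3.91 and 3.04. By comparison, 6.69% of all genes were higher and 3.04% lower by 2-fold or more.

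Known target genes of STAT3 were examined next. Against 6.69% of all genes higher and 3.04% lower by 2-fold, of the 14 listed 6 (*Bcl3*, *Cebpd*, *Junb*, *Hif1a*, *Vegfa* and *Icam1*) were at least 2-fold higher in *Pnpla1*-/- skin and 1, *Ccnd1*, was at least 2-fold lower. The median of the 14 was 0.73, or 0.45 with no scaling and 0.30 with spike-in scaling. *Bcl3*, which encodes a nuclear partner of NF-kappaB, had 2158 in *Pnpla1*+/+ skin against 14646 in *Pnpla1*-/- skin, a difference of 3.04. *Cebpd*, which encodes a transcription factor of the acute-phase response, had 15146 and 31576, a difference of 1.34.

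*Junb*, a subunit of AP-1, had 251 in *Pnpla1*+/+ skin against 499 in *Pnpla1*-/- skin, and *Icam1*, an adhesion molecule for leukocytes, had 238 and 446. Their differences were 1.27 and 1.19, and those of *Hif1a*, the hypoxia factor, and *Vegfa*, an angiogenic growth factor, were 1.22 and 1.20. With no scaling and with spike-in scaling these 4 genes were short of 2-fold, and *Cebpd* was with spike-in scaling, so that 2 and 1 of the 14 remained at least 2-fold higher, and of all genes 4.46% and 3.72% then were.

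*Ccnd1*, which encodes the cell cycle protein cyclin D1, had 15941 in *Pnpla1*+/+ skin against 6355 in *Pnpla1*-/- skin, a difference of -1.04. Genes for survival proteins on the list were within 2-fold, with *Mcl1* at 0.16, *Bcl2l1* at 0.30 and *Birc5*, which encodes survivin, at -0.55, and at -0.75 and -0.81 at its other probes. With spike-in scaling *Mcl1* and *Bcl2l1* turned to -0.27 and -0.13. *Cebpb*, the relative of *Cebpd*, was at 0.82. The target list was thus not uniform, and many of its genes also respond to other transcription factors.

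The last list held genes that shed the interleukin-6 receptor or control *Il6* mRNA. Of its 6 genes 3, *Zc3h12a*, *Nfkbiz* and *Arid5a*, were at least 2-fold higher, against 6.69% of all genes. The median of the 6 was 1.04, or 0.76 with no scaling and 0.61 with spike-in scaling. *Zc3h12a* encodes regnase-1, a nuclease that degrades *Il6* mRNA, and had 285 in *Pnpla1*+/+ skin against 3519 in *Pnpla1*-/- skin, a difference of 3.91. *Arid5a*, whose product stabilizes *Il6* mRNA against regnase-1, had 3397 and 7036, a difference of 1.33. Genes for opposing controls of this mRNA were therefore both at least 2-fold higher, although *Arid5a* was short of 2-fold with spike-in scaling.

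*Nfkbiz*, which encodes a nuclear cofactor of NF-kappaB that is needed for *Il6* induction, had 342 in *Pnpla1*+/+ skin against 1011 in *Pnpla1*-/- skin, a difference of 1.84. *Zfp36*, which encodes tristetraprolin, another protein that destabilizes cytokine mRNA, was at 0.72, and the sheddase genes *Adam10* and *Adam17* were at 0.29 and 0.75, the first turning to -0.14 with spike-in scaling. Over the lists other than the 10 genes, 12 of 53 genes with a difference, 22.6%, were higher by 2-fold or more and 1, or 1.89%, was lower by as much, and the median of the 52 measured on both arrays was 0.40, or 0.12 with no scaling and -0.03 with spike-in scaling. The shares of all genes were 6.69% and 3.04%. With no scaling 7 and with spike-in scaling 4 of the genes on the lists were higher by 2-fold or more, beside 4.46% and 3.72% of all genes. Because the lists were chosen with earlier results of these data known, these shares are a description and not a test.

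Markers of leukocytes, which can make *Il6* and *Osm*, differed between the arrays as well. Of 5 genes found in all leukocytes, 4 (*Ptprc*, *Coro1a*, *Laptm5* and *Cd52*) were at least 2-fold higher in *Pnpla1*-/- skin. Of all genes 6.69% were higher by as much. The median of the 5 was 1.24, or 0.96 with no scaling and 0.81 with spike-in scaling. *Ptprc*, which encodes CD45, had 232 in *Pnpla1*+/+ skin against 542 in *Pnpla1*-/- skin. The summed intensity of the 5 genes, in units of the 75th percentile, was 5.03 in *Pnpla1*+/+ skin against 14.2 in *Pnpla1*-/- skin, with *Coro1a* the brightest. With no scaling and with spike-in scaling, *Ptprc* and *Cd52* remained above 2-fold, 2 of the 5, beside 4.46% and 3.72% of all genes.

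Of 6 genes of macrophages and monocytes, 3 (*Lyz2*, *Adgre1* and *Cd14*) were at least 2-fold higher, against 6.69% of all genes. The sum of the 6 was 15.6 in *Pnpla1*+/+ skin against 23.1 in *Pnpla1*-/- skin, with *Csf1r*, at 0.67, the brightest. With no scaling and with spike-in scaling *Lyz2* alone of the 6 remained above 2-fold, beside 4.46% and 3.72% of all genes. *Itgam* was at -0.03 at its brightest probe and at 1.14 and 2.84 at its other probes. Of 6 neutrophil genes, *Retnlg* and *Mpo* were higher by 3.48 and 4.35 and *Cxcr2* by at least 5.90, whereas *Csf3r*, the brightest, *Ly6g* and *Elane* were at 0.04, 0.42 and 0.05. This *Mpo* probe had only 32.2 in *Pnpla1*+/+ skin. The other *Mpo* probe, not well above background there, gave a bound of 1.87. The neutrophil sum was 43.5 in *Pnpla1*+/+ skin against 47.1 in *Pnpla1*-/- skin, of which *Csf3r* made up 42.6 and 44, and the unscaled sum was lower in *Pnpla1*-/- skin, at 81674 against 91782.

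Neither the 4 T cell genes with a probe nor the 4 mast cell genes reached 2-fold, where 6.69% of all genes were higher and 3.04% lower by as much. The T cell and mast cell medians were -0.14 and -0.47. These medians were -0.42 and -0.76 with no scaling and -0.57 and -0.91 with spike-in scaling. The endothelial, skeletal muscle and adipocyte genes did not reach 2-fold either, with medians of 0.25, 0.07 and 0.08. Those were -0.03, -0.22 and -0.21 with no scaling and -0.18, -0.37 and -0.36 with spike-in scaling. The mast cell gene *Cma1*, at -0.79, was at least 2-fold lower with no scaling and with spike-in scaling. The sums of T cell and mast cell genes, in the same units, went from 0.511 to 0.527, with *Cd3e* the brightest and the unscaled sum lower in *Pnpla1*-/- skin at 915 against 1077, and from 51.7 to 36.3, with *Cpa3* the brightest. The part of leukocytes in the differences of *Il6*, *Osm* and the other genes was not tested.

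**Figure D5:**
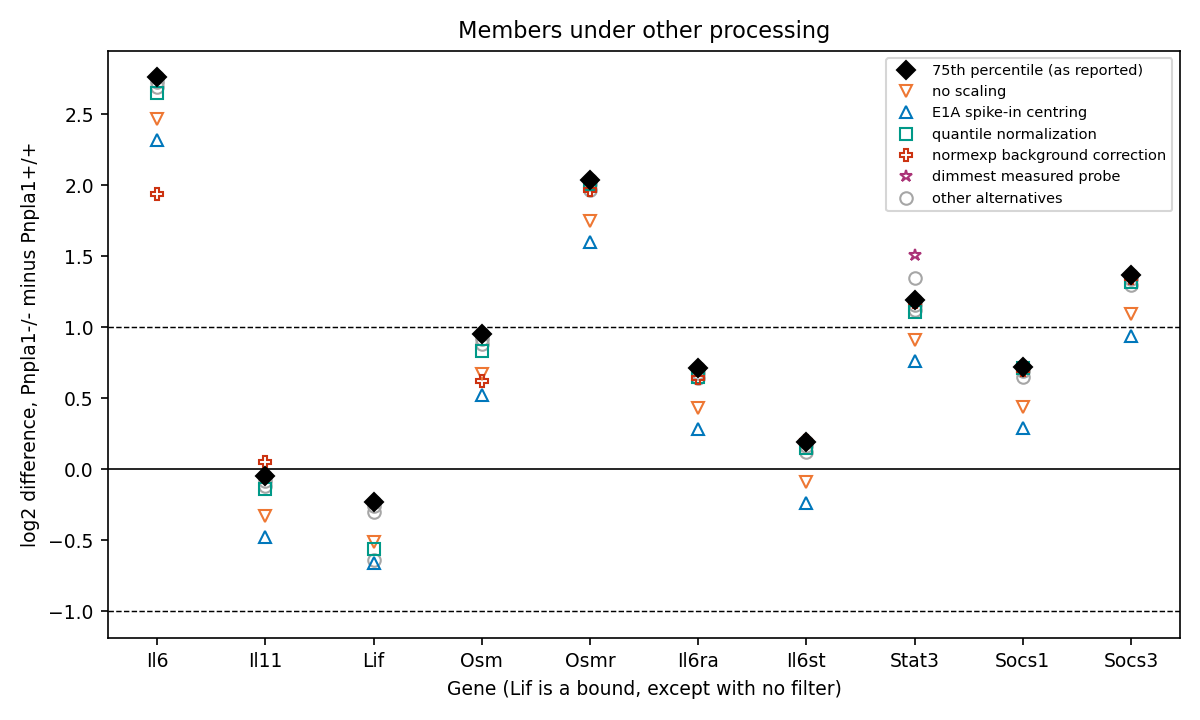
Difference between the genotypes (log2) of the 10 genes as reported (black diamonds) and under 12 other ways of processing, with dashed lines at 2-fold. *Il6* and *Osmr* stay at or above 1.94 and 1.60 under each of them, *Stat3* and *Socs3* reach down to 0.76 and 0.94 with spike-in scaling, and *Il6st* and *Il11* lie on both sides of 0.

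Under 12 other ways of processing the intensities, *Il6* ran from 1.94 to 2.76 and *Osmr* from 1.60 to 2.04, and both stayed above 2-fold, in the opposite order with normexp background correction, where *Il6* was at 1.94 and *Osmr* at 1.97. *Stat3* ran from 0.76 to 1.51 and *Socs3* from 0.94 to 1.37, always higher in *Pnpla1*-/- skin but not always by 2-fold. Of the 10 genes, 8 had the same direction wherever they had a value, which *Lif* had in 10 of the 12, and *Il6st* and *Il11* did not.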

How the data were processed

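Total RNA from newborn skin was labelled and hybridized to 1 Agilent 4x44K v2 mouse array per genotype, mapped to *Pnpla1*+/+ and *Pnpla1*-/- from the sample labels. The authors extracted the images with Feature Extraction (version 11.5.1.1 per the file headers) and deposited, spot by spot, an intensity after background subtraction with its error and flags, and a table in which each value is the ratio of that intensity to 1 factor per array (2109 and 1734). The methods describe a global normalization.

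From the deposited intensities, spots with an outlier flag (138 in *Pnpla1*+/+, 82 in *Pnpla1*-/-) were left out, each array was divided by its 75th percentile, log2 values of repeated spots were averaged, and the brightest probe stood for its gene (Python 3.11.15, numpy 2.4.6, pandas 2.3.3). Spots well above background made up 71.7% and 73.3%, and none was saturated. Of 39429 probes, 31455 were named through a RefSeq gene table of GRCm38.p6 and 7974 kept the name in the files. Probe coordinates are those of the files (mm9), and promoters are RefSeq's on GRCm38.p6, found for 9 of the 10 genes. Genes not well above background on 1 array have a bound, set by the lowest probe well above background on that array (23.9 in *Pnpla1*+/+, 21.7 in *Pnpla1*-/-), and 20683 genes were measured on both. The number of arrays limits the precision, no test was run, and the 2-fold threshold is a rule of size. The computation was tested on simulated data. From 314 probes with at least 8 spots, the median SD of a difference between repeated spots was 0.08, and 0.19 at intensities below 200.

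The genes followed, the lists and the threshold were chosen with earlier results of these data known. From each list the genes named are those at least 2-fold different and up to 3 of the brightest others, and some others, such as partners, neighbours and relatives of a named gene or opposite controls, were named after their values were seen. Some genes are not reported here. Tried were scaling by the median, by the percentile over detected probes, by 8 E1A spike-in probes or not at all, quantile normalization, normexp correction of the background with offset 50 (limma 3.58.1, R 4.3.3), the deposited ratios, other rules for probes, dim spots and flags, and thresholds of 1.5-fold and 3-fold.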

Additional observations from a re-analysis of the deposited data

How the results depend on the processing

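Among the 14 alternatives, the number of the 10 genes at least 2-fold higher was 4 in all but 4, with 3 with no scaling, 2 with spike-in scaling, 7 at a threshold of 1.5-fold and 2 at a threshold of 3-fold, and none was lower by the threshold in any. Their median difference of 0.95 was 0.67 with no scaling, 0.52 with spike-in scaling, 0.83 with quantile normalization, 0.70 with normexp background correction and 0.83 with no filter on dim probes. These scalings shift all genes, whose median of -0.01 moved to -0.29 with no scaling and to -0.44 with spike-in scaling, which centres the 8 E1A probes that differed by 0.43 (0.30 to 0.52), and it was 0.10 with no filter. Of all changed genes 68.7% were higher, against 41.2% with no scaling and 27.5% with spike-in scaling. The counts of all genes higher and lower, 1497 and 681, were 997 and 1423 with no scaling, 826 and 2181 with spike-in scaling, 958 and 322 with normexp, 3042 and 1106 with no filter, 3091 and 2091 at 1.5-fold and 683 and 228 at 3-fold. Of the other pathway genes, 35 of 53 kept their direction, and 5 of 13 (*Stat2*, *Bcl3*, *Ccnd1*, *Zc3h12a* and *Nfkbiz*) kept 2-fold, under 12 alternatives, of which 11 gave *Ctf2* a value. *Ebi3* was short of 2-fold with spike-in scaling, and *Jak3* with no scaling, spike-in scaling, normexp and its dimmer probe. No paired analysis was possible because each genotype has 1 array, and for the same reason no array could be left out and a slide term could not be fitted. For *Lif* and other genes near background only a bound or a difference with a large error was had.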
